A study of Drosophila melanogaster with 2 samples.

Results

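The clock genes of Drosophila melanogaster were examined in ChIP-seq peak lists of charlatan, a zinc finger protein that regulates transcription and is the product of chn. ChIP-seq sequences the DNA that is precipitated with a chromatin protein. The 9 genes were per, tim (timeless), Clk, cyc, vri, Pdp1, cwo, cry and sgg, chosen by name for their role in the circadian clock, of 13968 protein-coding genes on the chromosome arms. A summit is the base of strongest enrichment in a peak, and summits inside a gene's annotated span or within 5 kb of either end were taken. Chromatin came from whole embryos of mixed sex, aged 0 to 24 h, of a transgenic line that carries chn with a C-terminal GFP, and GFP antibody was used. There was 1 group of 2 biological replicates from the same line, with no second genotype, stage or treatment. The labels describe both a transgenic line and an insertion targeting chn. They do not state whether the fusion is at the endogenous locus, and do not name the promoter that drives the fusion protein. Because whole embryos were pooled, strong binding in few cells and weak binding in many cannot be told apart.

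The fly clock is a transcriptional feedback loop. The helix-loop-helix proteins CLK and CYC bind together to E-boxes with the core CACGTG and activate per, tim, vri, Pdp1 and cwo. PER and TIM return to the nucleus and block CLK and CYC, the bZIP proteins VRI and PDP1 repress and activate Clk, and CWO represses E-box genes. The photoreceptor CRY resets the loop through light-driven loss of TIM, and the kinase SGG phosphorylates TIM. Several of these proteins have other roles: SGG acts in Wingless signalling, VRI in embryonic growth and patterning, and PDP1 in muscle and fat body.

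The authors' thresholded set is named for the irreproducible discovery rate, a measure of how well peak ranks agree between replicates. It holds 4537 peaks, which are the 4537 strongest of the 30000 pooled peaks. A peak in it therefore need not rank high in both replicates. The rest of the 30000 pooled peaks, called without that threshold and including background, are called relaxed here. Signal is the authors' enrichment value for a peak, and rank 1 is the highest signal of a list. In all, 12 thresholded summits lay at 5 of the 9 genes, and none lay at per, tim, Clk or cwo. The gene vri had 4, Pdp1 and sgg had 3 each, and cyc and cry had 1 each. The sequences at the strongest summit of each of these 5 genes, with up to 100 bp on either side, show where the binding was centred. They are given from the dm6 genome (RefSeq, Release 6), plus strand, 5′ to 3′, without transcribed untranslated bases. Capitals mark the motifs searched, which are named with their counts further on.
sgg, chrX:2646324-2646524: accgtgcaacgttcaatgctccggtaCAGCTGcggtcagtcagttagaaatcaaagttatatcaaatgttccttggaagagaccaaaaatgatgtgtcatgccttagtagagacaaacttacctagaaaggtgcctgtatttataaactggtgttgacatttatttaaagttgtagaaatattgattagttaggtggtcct
cyc flank, between Fibp and Deaf1, chr3L:19818012-19818173: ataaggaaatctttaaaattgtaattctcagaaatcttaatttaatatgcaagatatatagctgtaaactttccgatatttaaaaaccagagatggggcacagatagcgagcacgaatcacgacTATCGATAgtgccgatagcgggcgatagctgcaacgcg
Pdp1, chr3L:7850976-7851176: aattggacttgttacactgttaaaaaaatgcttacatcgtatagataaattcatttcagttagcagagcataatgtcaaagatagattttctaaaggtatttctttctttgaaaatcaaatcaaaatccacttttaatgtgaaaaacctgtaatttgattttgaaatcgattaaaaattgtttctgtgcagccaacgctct
vri, chr2L:5299387-5299587: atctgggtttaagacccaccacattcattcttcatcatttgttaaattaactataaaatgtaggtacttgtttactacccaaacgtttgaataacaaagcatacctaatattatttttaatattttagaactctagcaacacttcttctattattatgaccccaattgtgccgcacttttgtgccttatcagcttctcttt
cry, chr3R:19211870-19212070: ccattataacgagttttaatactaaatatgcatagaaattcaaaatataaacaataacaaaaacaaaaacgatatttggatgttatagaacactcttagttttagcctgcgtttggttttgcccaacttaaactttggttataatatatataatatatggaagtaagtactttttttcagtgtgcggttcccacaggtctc
In capitals, the sgg sequence has the E-box variant CAGCTG, and the sequence beside cyc has TATCGATA, the DNA replication-related element (DRE) of many fly housekeeping promoters. The Pdp1, vri and cry sequences held none of the 6 motifs searched. They were AT-rich, with 28.4%, 31.8% and 29.4% GC.

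Of all protein-coding genes, 49.2% had a thresholded summit in the span or flanks, so 5 of 9 clock genes lay near the background. Inside the span alone, without flanks, it was 3 of 9 (vri, Pdp1 and sgg) against 11.6% of all protein-coding genes. These 3 are the only clock genes in the longest decile of genes, of which 44.5% had a summit inside the span. With the 5 kb flanks, the share was higher for longer genes. It was 36.8% of genes shorter than 1464 bp, 50.3% of those of 1464 to 3534 bp and 60.6% of the longer ones. The clock genes of 1464 to 3534 bp, cyc and cry, both had a summit, and 3 of the 7 longer clock genes did. The 3 longest, vri, Pdp1 and sgg, fell in the longest decile of genes, of which 64.8% had a summit. All of per, tim, Clk and cwo fell in the next decile, of which 62.0% had one. At least 3 summits were found at 8.57% of protein-coding genes, against 3 of the 9 clock genes, vri, Pdp1 and sgg. Of genes longer than 3534 bp it was 15.3%, against 3 of the 7 clock genes of that length. In the longest decile it was 25.5%, against all 3 of its clock genes. These differences were not tested.

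**Figure D1:**
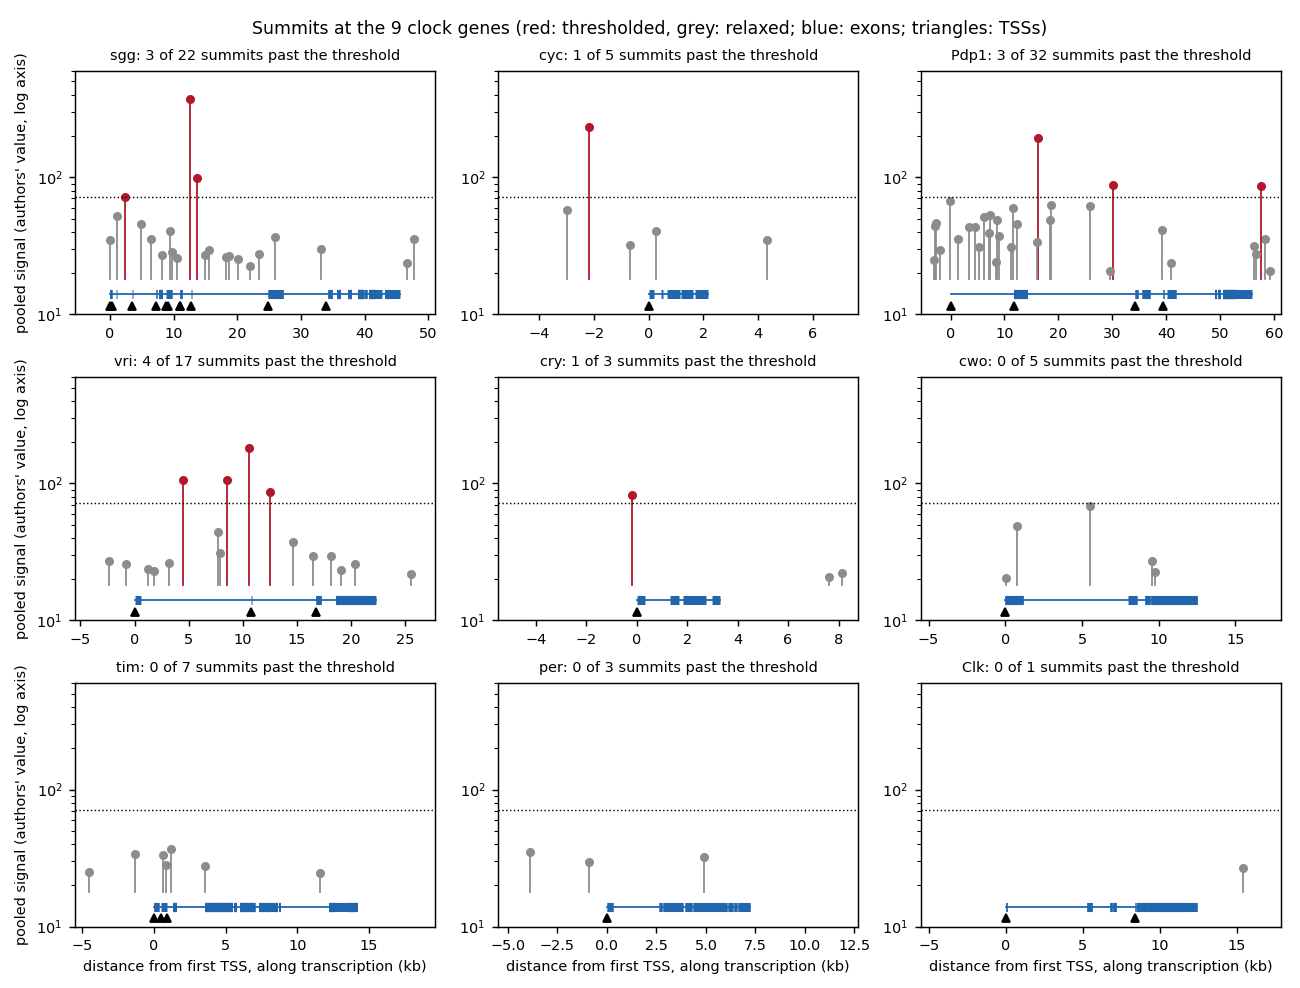
Pooled summits at the 9 clock genes, ordered by their strongest summit. The x axis is the distance from the gene's first transcription start site (TSS) in kb along transcription, and the y axis is the authors' pooled signal on a log scale. Red marks thresholded summits and grey relaxed ones, the dotted line is the lowest thresholded signal (71.44), and exons and TSSs are drawn below. The sgg summit at 375.4 stands highest, and per, tim, Clk and cwo have no red summit.

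**Figure D2:**
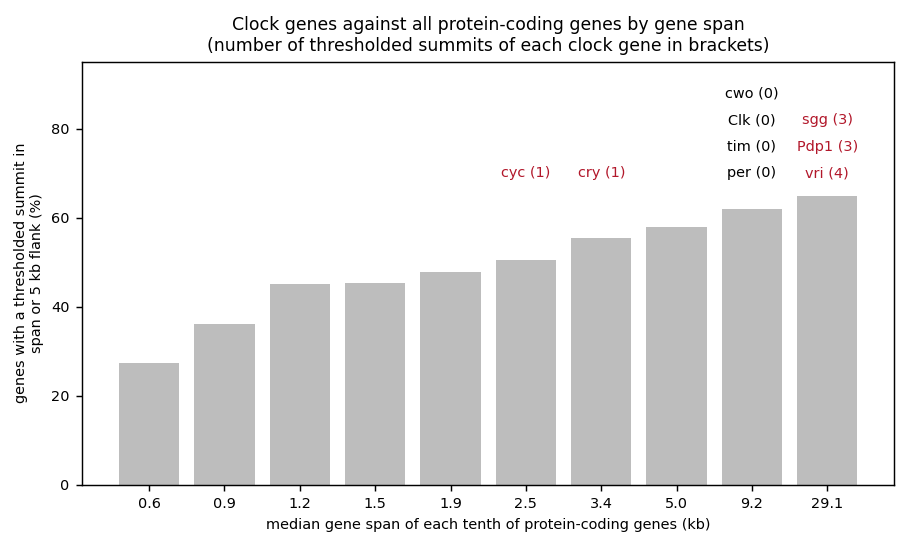
Share of protein-coding genes with a thresholded summit in the span or 5 kb flank, in percent, for 10 groups of genes of rising span (median in kb on the x axis). The clock genes are written above their group with their number of thresholded summits, and the 4 genes with 0 share the group of which 62.0% have a summit.

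The kinase gene sgg held the strongest summit of the 9 genes. The gene sgg (FBgn0003371, X, 2633952 to 2679553, plus strand) encodes the fly glycogen synthase kinase and has 19 annotated transcripts from 11 TSSs. Its strongest summit, at 2646424 (interval 2646309 to 2646562), had a pooled signal of 375.4 and ranked 200 of the 4537 thresholded summits. In the separate lists the overlapping peak had a signal of 224.0 and rank 184 in replicate 1, and a signal of 159.6 and rank 203 in replicate 2. Both replicates thus placed it among their highest peaks. It lay 213 bp upstream of an internal TSS that 1 of the 19 transcripts uses, and in an intron of 14 of them. A neighbouring summit 1132 bp away, at 2647556 (signal 99.4, rank 2783), was intronic and ranked 3563 and 2299 in the replicates. The last, at 2636322 (signal 71.9, rank 4498), lay just inside the threshold, 1103 bp upstream of another internal TSS, with replicate ranks of 4529 and 5198. A stronger best summit was found at 4.3% of protein-coding genes, and at 5.8% of those longer than 3534 bp.

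The gene cry (FBgn0025680, 3R, 19212154 to 19215442, plus strand) had 1 thresholded summit, 184 bp upstream of its only TSS, at 19211970 (interval 19211770 to 19212169). The pooled signal was 81.8 and the rank 3772. Replicate 1 gave a signal of 44.7 and rank 4233, and replicate 2 a signal of 38.5 and rank 3380, so both lists placed it weakly inside their strongest 4537. The noncoding gene lncRNA:CR46393 starts at the same base and on the same strand as cry, so the peak cannot be assigned to either.

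Among the bZIP regulators of Clk, vri had the most thresholded summits of the 9 genes, though Pdp1 had more pooled ones. The gene vri (FBgn0016076, 2L, 5288944 to 5311223, plus strand) held 4, spread over 8005 bp of its span. The strongest, at 5299487 (interval 5299287 to 5299686), was 160 bp upstream of an internal TSS that 1 of the 5 transcripts uses. Its pooled signal was 181.0 and its rank 1017. The signal was 106.6 with rank 952 in replicate 1, and 75.3 with rank 1095 in replicate 2. The other 3 were intronic. Those at 5293398 and 5297431 had nearly equal signals, 106.4 and 106.5 (ranks 2516 and 2515), and lay 4454 bp downstream and 2216 bp upstream of the nearest vri TSS. The latter was 497 bp from the TSS of lncRNA:CR45730. The weakest, at 5301403, had a signal of 86.8 (rank 3440). All 4 were in the strongest 4537 of both replicates, with ranks from 952 to 4059 in replicate 1 and from 1095 to 3128 in replicate 2. The other vri TSSs had no thresholded summit within 1000 bp. At the one that 3 transcripts use, the nearest pooled summit was relaxed, 207 bp upstream, with a signal of 29.6 and rank 16470.

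The gene Pdp1 (FBgn0016694, 3L, 7811458 to 7867369, minus strand) is the longest of the set, with 13 transcripts from 4 TSSs. It had 32 pooled summits, of which 3 passed. The strongest, at 7851076 (interval 7850876 to 7851275), was intronic in 9 transcripts and lay 4472 bp downstream of a TSS that 7 transcripts share. Its pooled signal was 193.3 (rank 851), with a signal of 88.7 and rank 1357 in replicate 1 and 100.8 and rank 568 in replicate 2. Another intronic summit, at 7837160, lay 4087 bp upstream of the next internal TSS (signal 87.7, rank 3396, replicate ranks 4742 and 2932). The summit in the downstream flank, at 7809824 (signal 86.1, rank 3476), was 1 bp from the TSS of CG32369 and 18194 bp from the nearest Pdp1 TSS. It ranked 3243 in replicate 1 and 6388 in replicate 2, the lowest rank of the 12 in either list. No thresholded summit was within 1000 bp of a TSS of Pdp1.

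Of the activator pair, cyc (FBgn0023094, 3L, 19813770 to 19815938, minus strand) had 1 thresholded summit and Clk none. The summit, at 19818112 (interval 19817912 to 19818311), lay 2174 bp upstream of the only cyc TSS. It was 62 bp from the TSS of Deaf1, a transcription factor gene, and 145 bp from that of Fibp, and so sat between these divergent genes. Its pooled signal was 233.1 (rank 571), with a signal of 101.8 and rank 1061 in replicate 1 and 123.4 and rank 381 in replicate 2. Near the cyc TSS itself, 272 bp downstream, the lists held a relaxed summit of signal 40.5 and rank 10068 of the 30000 pooled peaks. The gene Clk (FBgn0023076, 3L, 7763233 to 7775603, minus strand) had a single pooled summit, of signal 26.6 and rank 19651, in the promoter of the neighbour Hn. It had no overlapping peak in replicate 1, and a signal of 13.5 and rank 19134 in replicate 2. The nearest thresholded summit was 34221 bp from Clk, the one at the CG32369 promoter. A stronger best summit was found at 79.8% of protein-coding genes, and at 90.1% of those longer than 3534 bp.

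The inhibitors per and tim had weak pooled summits only. The gene per (FBgn0003068, X, 2685580 to 2692780, plus strand) had 3, with signals of 35.2, 32.3 and 29.7 and ranks of 12517, 14386 and 16419. The first lay in the promoter of HLH3B, 3896 bp upstream of per, and is also within the flank of sgg. The one nearest to the per TSS, 908 bp upstream, ranked 20875 in replicate 1 and overlapped no peak of replicate 2. The gene tim (FBgn0014396, 2L, 3493986 to 3508119, minus strand) had 7, with ranks from 11810 to 22236, and 3 of these were within 500 bp of one of its 3 TSSs. Their signals were 36.6, 33.3 and 28.1. Replicate ranks of overlapping peaks were 12214 to 15135 in replicate 1 and 14740 in replicate 2, and the strongest overlapped no peak of replicate 2. The nearest thresholded summits were 11125 bp from the span of per and 15479 bp from that of tim. Since the lists give no read totals, weak binding at these genes cannot be told from none.

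The E-box repressor gene cwo (FBgn0259938, 3R, 10388258 to 10400752, plus strand) came closest to the threshold without passing. Its strongest summit, in an intron at 10393802, had a pooled signal of 68.9 and ranked 4786, where the lowest thresholded signal was 71.44. The overlapping peak ranked 3992 in replicate 1 (signal 46.3) and 7316 in replicate 2 (signal 23.2), inside the strongest 4537 of the first and outside those of the second. Its summit was 120 bp from the pooled one in replicate 1 and 17 bp from it in replicate 2. A summit 781 bp downstream of the cwo TSS had a signal of 48.6 (rank 7756).

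Near a start site of the gene itself the count was lower. A thresholded summit near a TSS, at most 1000 bp away, was found at 24.1% of protein-coding genes and at 34.8% of those longer than 3534 bp. Here 3 of 9 clock genes did, vri, cry and sgg, of which vri and sgg are 2 of the 7 longer ones. By location, 5 of the 12 were promoter summits, at most 500 bp from where some protein-coding transcript begins, and 7 were in introns, against 51.7% and 31.0% of all 4537. In 2 of those 5, beside cyc and Pdp1, the promoter belonged to other genes. None was in a coding exon, which held 0.3% of all thresholded summits. The 12 were taken only from genes and their flanks, 9 of them inside the long genes vri, Pdp1 and sgg. The 4537 were not so limited, and 13.8% of them were intergenic, so these shares are not like for like. The 82 relaxed summits at the 9 loci lay in introns in 43 cases, in promoters in 17 and in coding exons in 12. The shares over all relaxed summits were not taken, so these counts cannot be read as particular to the clock genes.

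Most of the 12 summits were near the middle or lower part of the thresholded list. Their signals ran from 71.9 to 375.4, with a median of 102.9 against 113.1 over all thresholded summits. Among the 1000 strongest were 3, the leading summits of sgg, cyc and Pdp1, against 22.0% of all thresholded summits. The 9 loci covered 261.5 kb with flanks and held 45.9 thresholded summits per Mb, against 33.9 on the chromosome arms. Of their 94 pooled summits 12.8% passed the threshold, against 15.1% of all pooled summits. These differences were not tested.

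Both replicates had a peak overlapping each of the 12. In both lists 9 ranked within the strongest 4537, as did 78.5% of all thresholded summits. The 3 exceptions were the Pdp1 summits at 7837160 and 7809824 and the weakest sgg summit. Summits of overlapping replicate peaks were at most 100 bp from the pooled one, with a median of 8.5 bp. Of the 82 relaxed summits, 50 overlapped a peak in both lists. Neighbouring summits could share a replicate peak, so the 50 are not separate replicate peaks. The relaxed Pdp1 summit at 7851278, for example, was matched to ranks 1357 and 568, the peaks of the thresholded summit at 7851076. The share over all relaxed summits was not taken. The Pdp1 promoter summit at 7867517 (signal 66.9, rank 4987, replicate ranks 4026 and 7696) stood next to cwo just outside the threshold.

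**Figure D3:**
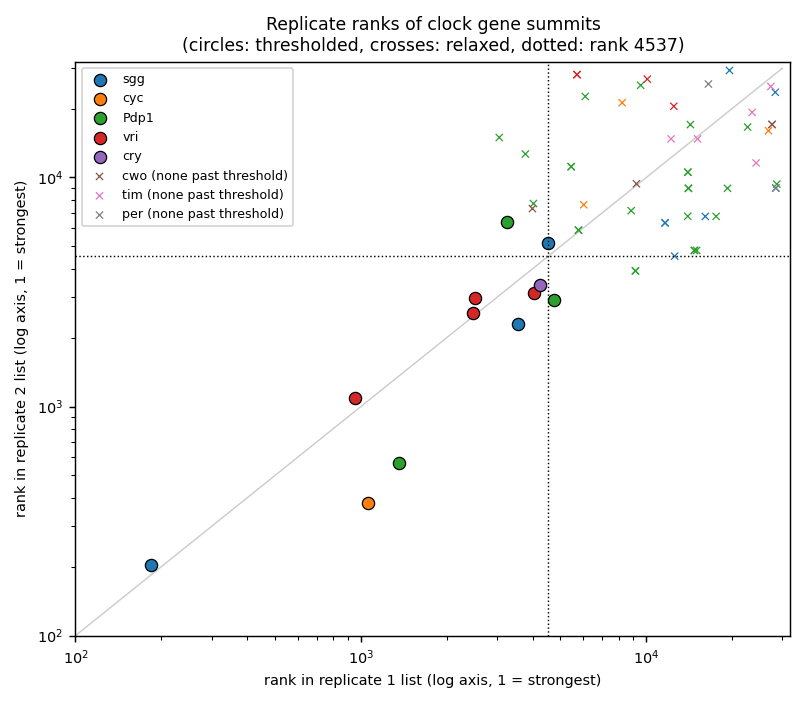
Rank of the overlapping peak in the replicate 1 list (x axis) and the replicate 2 list (y axis), both on log scales with 1 the strongest, for clock gene summits with a peak in both. Circles are the 12 thresholded summits and crosses the 50 relaxed ones, some of which share a replicate peak. Both are coloured by gene, and dotted lines mark rank 4537. The leading sgg summit sits at 184 and 203, and 3 circles lie beyond a dotted line.

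The canonical E-box was found at a pair of summits, on Pdp1 and sgg. Motifs were searched on both strands in windows that reach 100 bp to either side of each summit. The E-box CACGTG was in 2 of the 12 windows, against 2.56% of all thresholded windows. It was in 3.12% of 24584 relaxed windows, which do not cover all relaxed peaks. With 12 windows, these differences were not tested. These 2 are shown because they are the 2 clock gene E-boxes within 100 bp of a thresholded summit, with the motif in capitals.
Pdp1, chr3L:7837060-7837260: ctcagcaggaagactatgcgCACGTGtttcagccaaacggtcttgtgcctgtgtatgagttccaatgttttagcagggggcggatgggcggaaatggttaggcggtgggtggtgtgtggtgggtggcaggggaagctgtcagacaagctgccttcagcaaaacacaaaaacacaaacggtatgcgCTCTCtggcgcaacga
sgg, chrX:2636222-2636422: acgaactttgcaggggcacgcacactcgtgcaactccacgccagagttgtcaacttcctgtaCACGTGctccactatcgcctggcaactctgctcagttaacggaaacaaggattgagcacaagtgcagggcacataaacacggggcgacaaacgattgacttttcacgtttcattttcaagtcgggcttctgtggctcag
The Pdp1 E-box was 77 bp from the summit at 7837160 and the sgg E-box 35 bp from the summit at 2636322, and both summits rank low, at 3396 and 4498. In the Pdp1 sequence the further capitals are GAGAG read on the other strand. The loci of the 9 genes held 59 distinct E-boxes, of which the 2 (3.4%) lay within 500 bp of a thresholded summit. On the chromosome arms 3.96% of 16428 did.

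Apart from the Pdp1 E-box just shown, the E-boxes of the loop genes lay more than 500 bp from thresholded summits. The per locus had 11, among them 1 at 527 bp upstream of the TSS. It was 381 bp from the nearest pooled summit (rank 16419) and 18852 bp from a thresholded one. The tim locus had 2, and the one 184 bp from a tim TSS was 97 bp from the relaxed summit of rank 13696. The E-box 152 bp upstream of the first Pdp1 TSS lay 4 bp from the relaxed summit of rank 4987 named above, and an intronic Pdp1 E-box lay 35 bp from a relaxed summit of rank 6807. In all, 5 of the 59 were within 100 bp of a pooled summit. These 3 are given with 10 bases on each side, E-box in capitals, plus strand, as examples of E-boxes near a start site of the loop's genes and, at tim and Pdp1, within 100 bp of a relaxed summit. The tim stretch lies in its 5′ untranslated region.
per, chrX:2685040-2685065: agccgccgctCACGTGgcgaactgcg
tim, chr2L:3507407-3507432: gaaatcggctCACGTGtaatcacaac
Pdp1, chr3L:7867508-7867533: agaatgtaatCACGTGgtctttatct
The cwo locus had the most E-boxes, 15, none nearer than 441 bp to a pooled summit, and vri had 4, all between 1952 and 3276 bp from its nearest thresholded summit.

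**Figure D4:**
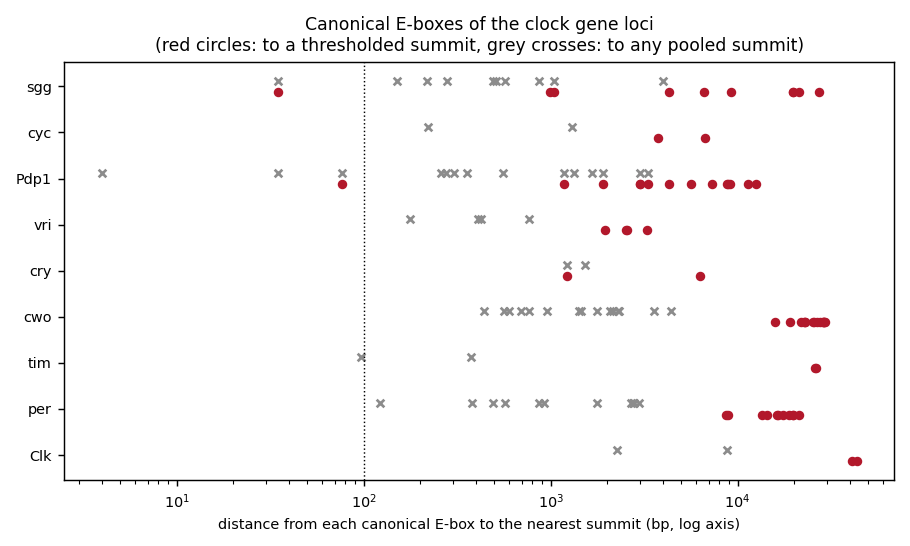
Distance in bp, on a log axis, from each CACGTG of a clock gene locus to the nearest thresholded summit (red circles) and to the nearest pooled summit (grey crosses), 1 row per gene. The dotted line is at 100 bp, and the 2 red circles left of it belong to Pdp1 (77 bp) and sgg (35 bp).

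Each of the other motifs was in at most 2 windows. TTANGTAA, a site bound by VRI and PDP1, was in 0 of the 12 windows (4.89% of all thresholded windows). TATCGATA was in 1, beside cyc (4.78%), and CAGCTG in 1, the leading sgg summit (11.3%). GAGAG was in 2, in the Pdp1 span and at the CG32369 promoter (27.0%). In windows reaching 200 bp to either side, GAGAG was in 10 of the 12 against 47.5% of all thresholded windows, so whether it lay below or above the background turned with the window. CAGCTG was then in 3 (22.0%). ACAGTGG and CAGCTG were searched because earlier results of these same data had found them enriched. The shares of ACAGTGG, 9.30% of all thresholded and 4.03% of the 24584 relaxed windows, are thus no separate evidence of enrichment. ACAGTGG was in 1 of the 12, the vri summit at 5297431, 11 bp from the summit and in capitals in this sequence.
vri, chr2L:5297331-5297531: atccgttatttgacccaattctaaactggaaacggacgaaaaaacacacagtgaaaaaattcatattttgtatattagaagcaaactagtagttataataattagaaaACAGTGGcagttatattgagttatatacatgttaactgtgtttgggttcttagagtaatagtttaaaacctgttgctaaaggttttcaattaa
Each match describes letters in a window and shows neither a bound site nor its absence.

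Other genes of the clock were read from a list of 23 by role. Of these, 10 had a thresholded summit within 1000 bp of a TSS, against the background of 24.1%, and all 10 were among the 18 longer than 3534 bp (34.8%). Among 8 kinases, phosphatases and partners that act on PER and TIM there were 5. They were the PER kinase gene dco (doubletime; signal 131.3, rank 1787, replicate ranks 2080 and 1574), the casein kinase 2 subunit gene CkIIbeta (signal 73.5) and the phosphatase genes mts (157.6), wdb (119.0) and tws (76.9). The CkIIbeta peak, of rank 4369, ranked 4968 in replicate 1 and 3629 in replicate 2. It was 748 bp from the TSS of asRNA:CR44962. The tws peak ranked 2571 in replicate 1 and 15104 in replicate 2, and the mts peak was 10 bp from the TSS of Rack1. Among transcription and translation factors there were 3 of 4: the nuclear receptor gene Eip75B (signal 245.3, rank 499), the coactivator gene nej (207.0, rank 750) and Atx2, a translation factor of per (73.2). The nej summit was 647 bp from a nej TSS and 476 bp from that of lncRNA:CR42657. The Atx2 peak, near the lowest thresholded signal of 71.44, ranked 5223 in replicate 1 and 4197 in replicate 2. Of 4 degradation genes, slmb, the F-box gene that acts on PER, had a peak (105.7), 29 bp from the TSS of CG5793. Of 3 input genes nocte had one (88.9), with the TSS of CG2889 311 bp away. Of 4 output genes, among them the neuropeptide gene Pdf and its receptor gene Pdfr, none had one.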

How the data were processed

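Per the labels, 2 biological replicates of whole embryos were sonicated to fragments of 200 to 800 bp. The inventories that the authors deposited list separate peak calls for each replicate and for both together, always with 1 control, and derive the thresholded set from them. Names and versions of aligner and peak caller were not given in the sources used here. Each deposited list gives a signal, used to rank peaks within a list, and the −log10 of a q-value, which saturated at 3.89 and was not used to rank. The 4537 thresholded peaks were the 4537 strongest of the 30000 pooled peaks. Intervals of 11 of the 12 clock gene summits were 400 bp wide, so their edges are not a measured extent. Depth is unknown, and no count or interval of reads could be given.

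Builds are dm6 and dm3. The dm3 lists were not used here. Genes came from Ensembl release 115 (BDGP6.54) and bases from the RefSeq Release 6 genome, whose arm lengths held all peak ends. Promoter summits are those at most 500 bp from a protein-coding TSS. Each remaining summit was classed by the exon part it hit (5′ UTR before coding, coding before 3′ UTR), then as intronic or intergenic. Replicate ranks are those of the strongest peak that overlaps by at least 1 bp. No test was run, because there is 1 group, and counts stand beside the share of all protein-coding genes or summits. The members, gene lists and motifs were chosen with earlier results of these data known. Named genes are the members, genes with a TSS within 1000 bp of their thresholded summits, and listed clock genes with a thresholded summit within 1000 bp of a TSS. Hn and HLH3B, at relaxed summits, were named after their values were seen. Counting was tested on simulated data. Alternatives were other flanks, distances, windows, a stricter set and each replicate alone. Python 3.11.15 with numpy 2.4.6 and pandas 2.3.3 was used.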

Additional observations from a re-analysis of the deposited data

How the results depend on the processing

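With the 1000 strongest peaks alone, 3 clock genes had a summit in the span or flanks (17.8% of protein-coding genes did), 1 had one within 1000 bp of a TSS (7.2%), 3 summits were left in all, 0 held CACGTG, and 2 genes of the other clock list had one near a TSS. Without flanks 3 clock genes had a summit (11.6% of protein-coding genes), since those of cyc and cry lie outside the spans. In windows that reach 50 bp to either side, 1 summit held CACGTG. Under the other flanks, distances and windows run for them these counts stayed within 1.5 times. With the strongest 4537 peaks of 1 replicate alone, the clock genes with a summit numbered 5 to 6, those with one near a TSS 4 in either list, the summits 12 to 15, the other clock genes with one near a TSS 8 to 14, and the summits with CACGTG 1 to 2. CACGTG in the stricter set and in single replicates was added after seeing the data. In either list the clock gene added near a TSS was Pdp1. Replicate 1 alone placed 5 summits at Pdp1, against 3 in the thresholded set, and 1 at cwo. The cause was not tested. No paired analysis was possible because there is 1 group. Unknown depth limits what can be said of genes without a peak.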

Other observations

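Some genes of the other clock list had strong thresholded summits away from their own TSSs, and they are named here after their values were seen. The gene norpA, the phospholipase of phototransduction, had 1 of signal 371.2 and rank 203, at 1354 bp from its nearest TSS. At jet, a gene of light-driven TIM loss, the summit of signal 240.4 and rank 519 was 4251 bp from the jet TSS. At Bdbt, a partner of the dco kinase, the summit had a signal of 189.1 and rank 899 and was 5608 bp from the Bdbt TSS. As jet spans 1579 bp and Bdbt 1000 bp, both summits lay outside the gene, in its 5 kb flank. Promoters of other genes near these summits were not looked up.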
